A study of Mus musculus with 36 samples.

Results

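The genes described here are 33 genes of endoplasmic reticulum (ER) stress and the integrated stress response, chosen by symbol out of the 24421 gene symbols measured. All 33 were measured, and all 33 passed the filter on low values in each of the 4 comparisons. They comprise 14 ER chaperones and foldases, 7 stress sensors and transcription factors, 4 genes of ER-associated degradation and 8 targets of the integrated stress response.

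RNA sequencing of polyadenylated RNA from mouse hippocampus gave 36 libraries in 6 groups, each of 3 females and 3 males. The C57BL/6 arm held a young group aged 8 months and 2 old groups aged 18 months, of which 1 was given a nanoligomer, an antisense-type molecule built on peptide nucleic acid. The other arm was aged 4 months and held "non-carrier" littermates, APP/PS1 mice, which carry amyloid transgenes, and APP/PS1 mice given the nanoligomer. Mice without nanoligomer are labelled as controls, the series title names NF-κB and NLRP3 as what is downregulated, and no source used here gives the dose, the duration, the APP/PS1 line, its promoter or the strain background of the littermates. Each library is labelled as a separate sample, with no statement that it came from 1 animal, so the p-values measure the spread between these libraries.

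Proteins that enter the secretory pathway fold in the ER with the help of chaperones, lectins and disulfide isomerases. When unfolded protein accumulates there, 3 sensors in the ER membrane respond: Ern1 splices the Xbp1 transcript, Atf6 is cut to release a transcription factor, and Eif2ak3 phosphorylates the initiation factor eIF2, which lowers general translation while Atf4 is translated more. Other kinases phosphorylate the same factor on lack of amino acids, viral RNA or lack of heme, and the shared program is called the integrated stress response. Chaperone genes and degradation genes are the known targets of Atf6 and Xbp1, and genes of amino acid supply and redox balance those of Atf4. Much of this signalling acts on splicing, cleavage, phosphorylation and translation, which gene counts do not measure.

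Start windows are shown first because letters that the regulators of these genes are known to bind were found in many of them. RefSeq windows on GRCm38.p6, from 250 bases before to 50 bases after each start, were found for 30 of the 33 genes. The ER stress element, CCAAT and CCACG separated by 9 bases of any kind, was searched on both strands. It was present in 8 of these 30 genes and in 0.137% of all 27025 symbols with a window. By windows, 0.119% of 32851 held it. Of 12 chaperones and foldases with a window 7 held it, namely Hspa5, Hsp90b1, Calr, Canx, Pdia6, Dnajc3 and Creld2. Syvn1 of the degradation group held it too, and none of the 8 integrated stress response targets or of the 6 sensors and factors with a window did. The shorter ER stress element II, ATTGG and CCACG separated by 1 base, was searched alike and was present in Herpud1 and, 8 bases after the start, in Dnajb11, against 0.0444% of symbols. The genes were chosen as members of pathways whose regulators are known to bind such elements. A higher share among them than among all symbols is therefore no independent finding, and it was not tested. In the sequences below, printed on the strand of the gene, capitals mark the element in either orientation. Hspa5 is given as the element alone, since the stretch with its flanks overlaps an annotated exon. In the annotation used for exons the gene starts at chr2:34771970, so the element itself lies within the gene. Syvn1 and Herpud1, the other holders, were added to the display after the search.
Hspa5, chr2:34772025-34772043, plus strand: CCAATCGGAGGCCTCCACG
Hsp90b1, chr10:86705618-86705676, minus strand: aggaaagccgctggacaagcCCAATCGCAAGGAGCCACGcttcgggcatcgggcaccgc
Hsp90b1, chr10:86705513-86705571, minus strand: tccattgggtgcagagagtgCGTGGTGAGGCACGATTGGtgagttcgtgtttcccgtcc
Calr, chr8:84847055-84847113, minus strand: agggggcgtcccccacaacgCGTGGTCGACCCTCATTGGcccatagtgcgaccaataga
Canx, chr11:50325780-50325838, minus strand: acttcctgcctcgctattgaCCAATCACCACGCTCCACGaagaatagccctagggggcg
Pdia6, chr12:17266471-17266529, plus strand: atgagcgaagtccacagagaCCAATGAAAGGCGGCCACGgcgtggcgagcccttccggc
Dnajc3, chr14:118937807-118937865, plus strand: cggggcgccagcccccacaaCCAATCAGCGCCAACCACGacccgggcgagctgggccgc
Creld2, chr15:88819500-88819558, plus strand: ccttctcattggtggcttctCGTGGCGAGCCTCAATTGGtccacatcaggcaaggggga
Syvn1, chr19:6046512-6046570, plus strand: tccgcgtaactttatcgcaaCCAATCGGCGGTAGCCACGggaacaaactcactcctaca
Herpud1, chr8:94386357-94386407, plus strand: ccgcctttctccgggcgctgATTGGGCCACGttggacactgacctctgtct

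The amino acid response element TGATGNAA, which Atf4 is known to bind, was present in 4 of 8 integrated stress response targets (Trib3, Chac1, Slc7a11 and Asns), in Herpud1 and in 4.51% of all symbols. No chaperone window held it. Slc7a11 held it in each orientation, with first bases at -66 and -47 from the start. The stretch below has only the match at -66 in capitals, and the match at -47 lies in its right flank in lower case. The match in Trib3 lay 15 bases after the start. The unfolded protein response element TGACGTGG was in none of the 30 genes and in 0.714% of symbols. As with the ER stress elements, a higher share among genes chosen for the pathway is no independent finding. A match describes letters, not bound protein, and these elements were not searched outside the windows. Asns is again given as the element alone, which also lies within the annotated gene.
Chac1, chr2:119351029-119351076, plus strand: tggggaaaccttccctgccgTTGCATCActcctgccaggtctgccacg
Slc7a11, chr3:50443652-50443699, minus strand: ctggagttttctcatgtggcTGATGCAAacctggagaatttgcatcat
Asns, chr6:7693225-7693232, minus strand: TGATGAAA
Herpud1, chr8:94386297-94386344, plus strand: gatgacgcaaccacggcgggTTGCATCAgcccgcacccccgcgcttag

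**Figure D1:**
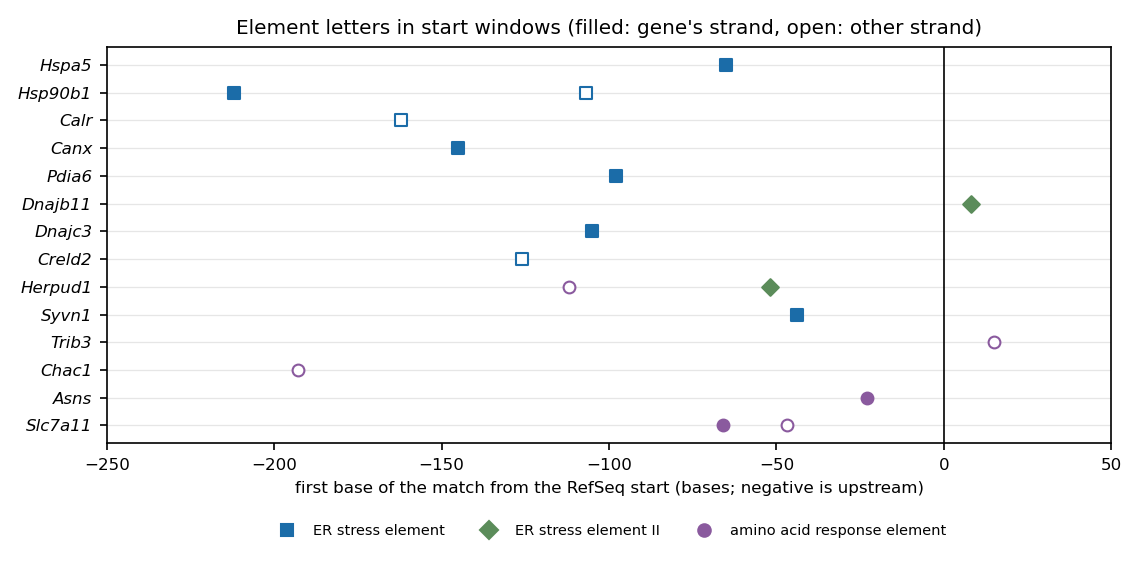
Position of each element match in the start windows of the 14 genes that hold one, in bases from the RefSeq start on the horizontal axis. Squares are the ER stress element, diamonds the ER stress element II and circles the amino acid response element; 7 of the 8 genes with squares are chaperones or foldases, and circles lie in integrated stress response targets and in Herpud1.

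Depth was 27.6 to 46.3 M reads in the 35 libraries used. The 1 left out, with 0.913 M reads, was female 3 of APP/PS1 mice given the nanoligomer, so that group has 5. None of the 10 hippocampal neuron markers was at 0 in any group, and their summed level ran from 224 to 998 CPM (counts per M reads). Of 8 choroid plexus markers none was at 0 in any group. Their summed level was 13.2 to 4110 CPM (median 1310) in young, 22.8 to 245 in old, 59.2 to 534 in treated old, 26.9 to 590 in littermate, 17.7 to 58.5 in untreated APP/PS1 and 62.1 to 3900 in treated APP/PS1 libraries. Summed levels of 6 general neuron markers were 10200 to 13800 CPM in 33 libraries, against 5430 in APP/PS1 female 1 and 6640 in young male 1. APP/PS1 female 3 had the highest microglial sum, 814 CPM. In bulk tissue, fewer cells of a type and less RNA per cell cannot be told apart.

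All 33 genes were expressed, over a range of levels that is best compared per length of exon. Calr, a lectin chaperone that binds calcium, stood highest with a median of 156 CPM per kb over the 35 libraries. Hsp90b1, the ER member of the Hsp90 family, followed at 74.6 CPM per kb, and Canx, the membrane-bound partner of Calr, at 62.7. Atf4, the transcription factor of the integrated stress response, stood at 48.3 CPM per kb and so among the chaperones, next to the disulfide isomerase Pdia3 at 46.7. Hspa5, the main Hsp70 chaperone of the ER, had 37.4 CPM per kb. The sensors were lower: Atf6 stood at 9.07, Eif2ak3 at 5.19, and Ern1 ran from 0.686 to 1.92 CPM per kb. Trib3, a pseudokinase induced by stress, was lowest at 0.256 CPM per kb, which is 0.128 to 1.74 CPM. In this order 2 of 32 neighbouring pairs had ranges that did not overlap, Calr above Hsp90b1 and Edem1 above Ern1. The ranges of all other neighbours overlapped.

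**Figure D2:**
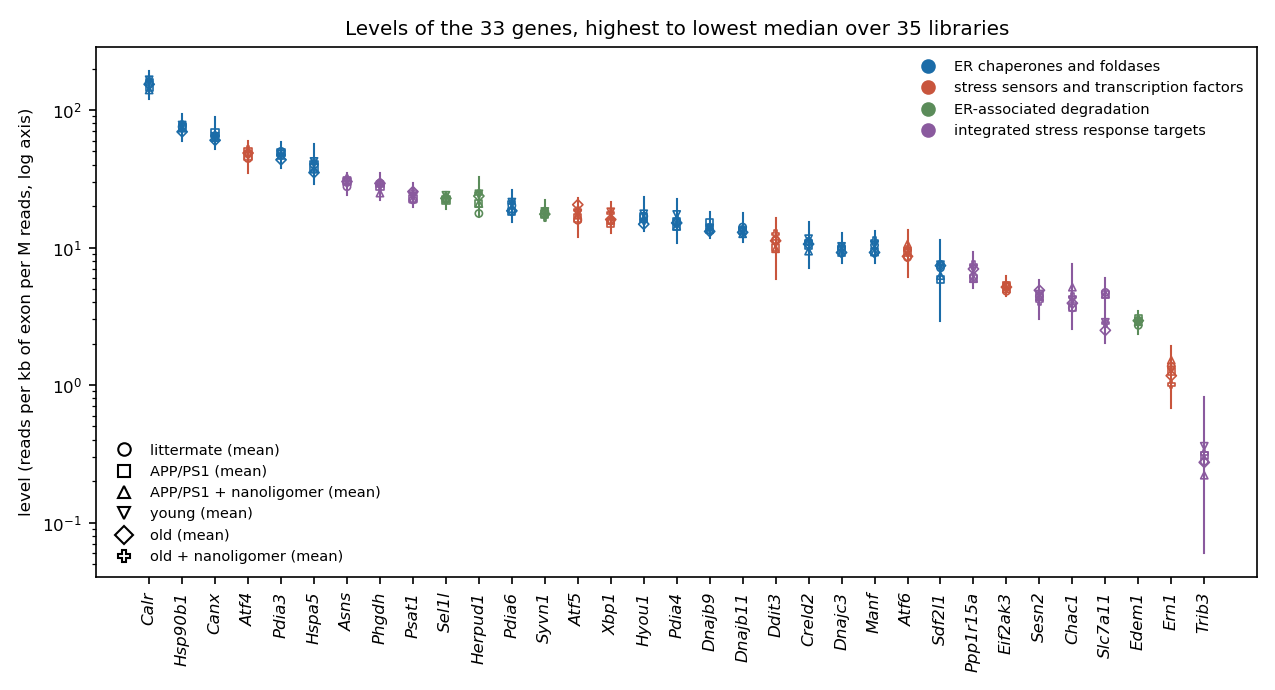
Level of each gene in reads per kb of exon per M reads (log axis), with lines from the lowest to the highest of 35 libraries and symbols for the 6 group means. Calr stands above all others, Trib3 is lowest by median, and the group means lie close together for nearly all genes, with Slc7a11 the widest apart between the arms.

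The coefficient of variation of the CPM within a group, as the median over the 6 groups, had a median of 11.3% over the 33 genes, against 14.4% over 16420 genes with a mean of at least 0.3 CPM. These sets were not matched for level, and apart from Trib3 no member was below 3.26 CPM in any library. The lower value therefore need not mean that the members are steadier than genes of like level. Syvn1, the ubiquitin ligase of ER-associated degradation, was steadiest at 6.06%. Its adaptor Sel1l had 6.82% and Canx 7.0%. The widest were Trib3 at 42.7%, Sdf2l1, a partner of Hspa5, at 23%, and Chac1, an enzyme that degrades glutathione, at 19.8%. Exons of some genes overlap other measured genes on GRCm38, among them Hsp90b1, Manf, Atf5, Ddit3 and Syvn1. The strand used in counting is not given in the sources used here, so reads in those overlaps are uncertain.

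The first comparison set old against young C57BL/6 mice, with 6 libraries in each group. Of the 33 genes 0 passed an adjusted p under 0.05 in limma, against 0.0361% of 16626 genes tested. EdgeR called 0 members (0.0361% of genes) and DESeq2 0 (0.742%). At an unadjusted p under 0.05, limma had 1 member higher (3.37% of genes) and 3 lower (2.77%). This total of 4 was 6 without young female 1 or young male 2. It was 3 without young female 3 or old male 3 and with the choroid plexus marker level as a covariate. In the other settings it was 4 or 5. The estimate was below 0 for 25 of 33, against 51.4% of all genes, and the median log2 fold change was -0.07, against -0.00 over all genes. The 95% limits lay within a 1.5-fold change in either direction for 32 of 33, against 69.6% of genes tested. Here and in the other comparisons, members and genes tested were not matched for level. Most chaperones among the members vary together between libraries, so counts of signs are not counts of independent results. Log2 fold changes here are of the normalized count plus 1.

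All 14 chaperones and foldases had estimates below 0 with age, with a median of -0.13, and none passed. Most of these genes vary together between libraries, with a median Pearson r of 0.47 over their 91 pairs. Their signs are therefore not independent results, here and in the other comparisons, and were not tested. Hspa5 (GRCm38 chr2:34771970-34777547, plus strand, protein coding) had 6238, 6739 and 8964 normalized counts (lowest, median and highest) in young libraries and 5066, 6049 and 6451 in old ones. The groups overlapped, with young male 1 highest and old male 3 lowest. The estimated log2 fold change was -0.24 ± 0.098 (SE), with an adjusted p of 0.765. Hyou1 (chr9:44379490-44392369, plus strand), a nucleotide exchange factor of Hspa5, had 4662, 4843 and 6308 in young against 3827, 4424 and 4655 in old libraries. It was the only member whose groups did not overlap, all old libraries being lower, as in 0.102% of genes. No member was higher without overlap (0.403% of genes). The gap between the lowest young and the highest old library was small, and in CPM, without the deposited size factors, the groups overlapped at the edge (115 CPM lowest in young, 116 CPM highest in old). In the normalized counts the log2 fold change was -0.23 ± 0.082 (adjusted p = 0.668), and -0.14 with weights for library quality.

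Pdia6 (chr12:17266545-17284770, plus strand), a disulfide isomerase, had 2934, 3127 and 3433 in young and 2511, 2859 and 2966 in old libraries, which overlapped. The fitted log2 fold change was -0.19 ± 0.057 (adjusted p = 0.580). Manf (chr9:106838312-106891979, minus strand), a secreted neurotrophic factor that resides in the ER and binds Hspa5, had 1204, 1529 and 1628 in young and 1167, 1322 and 1403 in old libraries. These overlapped as well, with a log2 fold change of -0.17 ± 0.082 (adjusted p = 0.823). Young male 1, the library with 4110 CPM of choroid plexus markers, was highest for Hspa5 and for Hyou1. Without it their log2 fold changes were -0.16 and -0.15. Without the 4 young libraries over 800 CPM of these markers, which leaves female 3 and male 2, 25 of 33 estimates were below 0 and the median was -0.06. Of those left, male 2 had 1020 CPM of summed striatal and 284 CPM of summed hippocampal neuron markers, and female 3 had 114 and 936 CPM. With the choroid plexus marker level as a covariate the median was -0.04. The part of choroid plexus tissue in these estimates was not tested otherwise, and that of striatal tissue was not tested.

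Among transcription factors, Atf5, which acts downstream of eIF2 phosphorylation and in mitochondrial stress, had 1121, 1441 and 1660 in young and 1509, 1645 and 1814 in old libraries. The groups overlapped, and the log2 fold change was 0.24 ± 0.082 (adjusted p = 0.665). Ddit3, which encodes CHOP, had 660, 738 and 800 in young and 691, 780 and 850 in old libraries, which overlapped over most of their range. Its estimate of 0.07 ± 0.077 (adjusted p = 0.907) was 0.03 without young female 1 and also 0.03 without old male 3.

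Of the integrated stress response targets, Psat1, an enzyme of serine synthesis, had 3354, 4116 and 4281 in young and 4057, 4392 and 4751 in old libraries. They overlapped, with young female 2 well below the rest of its group. It had a log2 fold change of 0.13 ± 0.065 (adjusted p = 0.851) and 0.08 without young female 2 or without the young libraries high in choroid plexus markers. Sesn2, which senses leucine and restrains mTORC1, had 441, 670 and 750 in young and 622, 670 and 821 in old libraries. The medians were alike and the groups overlapped. The estimate of 0.13 ± 0.121 (adjusted p = 0.898) was 0.05 without old male 3, 0.03 without young male 2, 0.04 with library weights and 0.31 without the young libraries high in choroid plexus markers. The last of these fits keeps young male 2, the lowest young library. The 4 degradation genes had a median of -0.04, with 3 of 4 below 0.

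**Figure D3:**
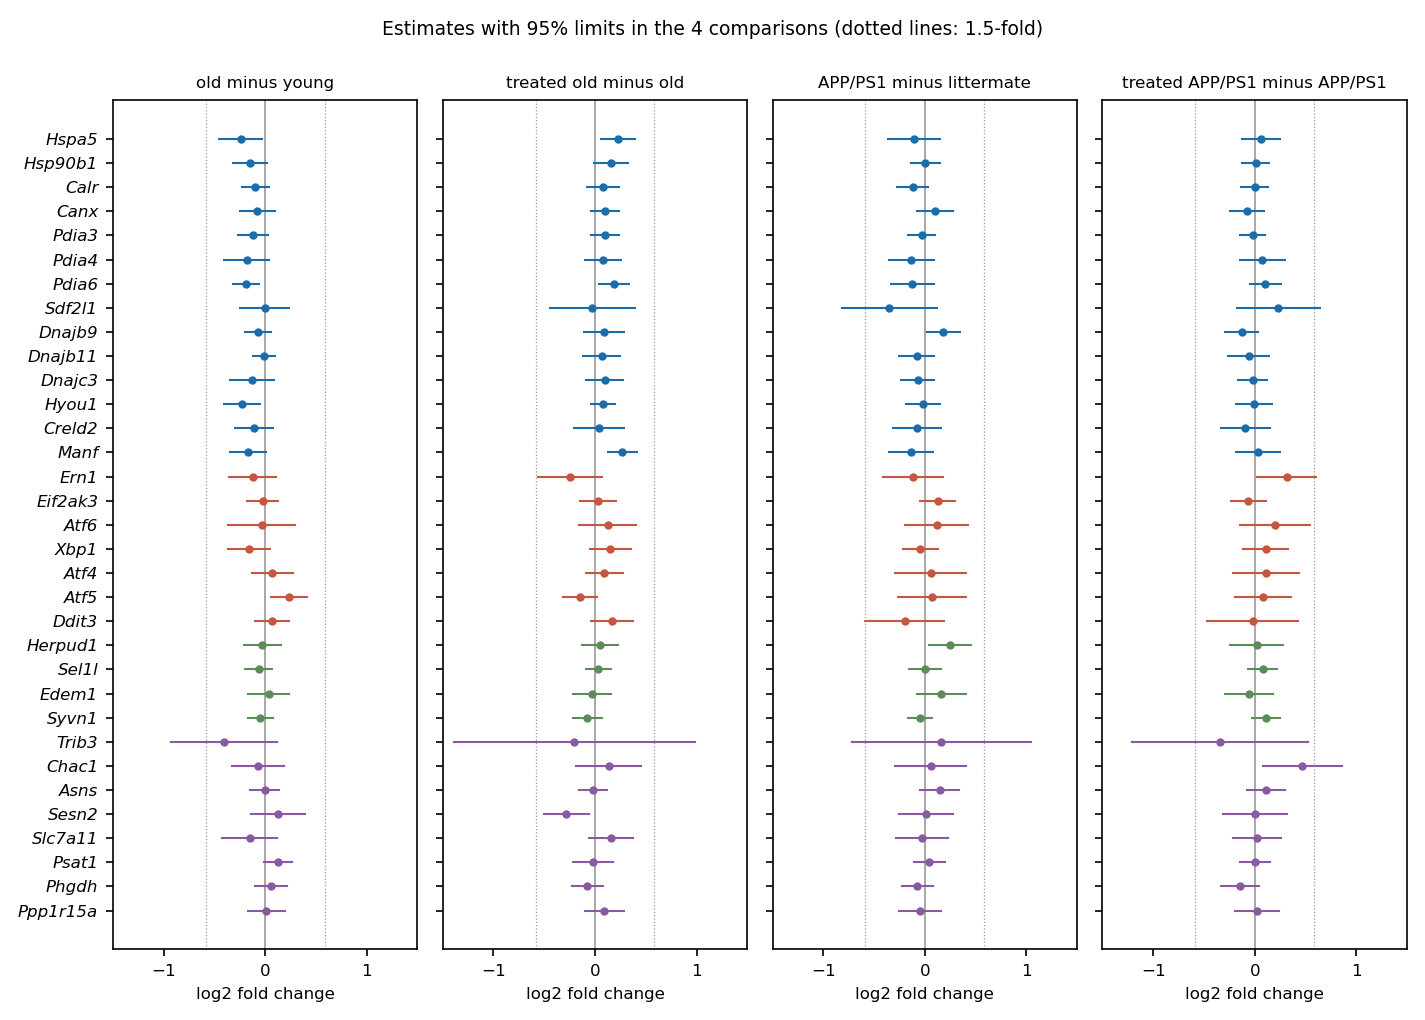
Log2 fold change of each gene (points) with 95% limits (lines) in the 4 comparisons, coloured by role as in the plot of levels; dotted lines mark a 1.5-fold change. The chaperones at the top lie left of 0 with age and mostly right of 0 in treated old mice, nearly all limits stay between the dotted lines, and Trib3 has the widest.

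The second comparison set treated old against untreated old mice, 6 libraries each. The untreated old libraries are those of the age comparison, so the estimates of both share them and are given side by side only. Limma called 0 of 33 members, as it called 0.0% of 16517 genes. EdgeR called 0 members (0.0% of genes) and DESeq2 0 (0.0122%). At an unadjusted p under 0.05, 3 members were higher (3.62% of genes) and 1 was lower (3.60%). This total of 4 was 7 without treated female 2 and 6 without old male 1 or old male 3. It was 4 or 5 in the other settings. Estimates were above 0 for 23 of 33 (49.0% of genes), with a median log2 fold change of 0.08 against -0.00 over all genes, and 0.05 with library weights. No member had groups without overlap, higher (0.121% of genes) or lower (0.133%). The 95% limits were within 1.5-fold for 32 of 33 (68.8% of genes).

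Of the 14 chaperones and foldases, most of which vary together between libraries, 13 had estimates above 0 under treatment, with a median of 0.09. Tissue markers differed between these groups as well. Summed hippocampal neuron markers had a median of 499 CPM (261 to 928) in treated old and 960 CPM (224 to 998) in old libraries, and summed striatal neuron markers ran from 118 to 1790 CPM and from 108 to 524 CPM. Treated female 3, the library with 1790 CPM of striatal and 261 CPM of hippocampal markers, was highest for Hspa5 and Hsp90b1, and old male 3 held the 524 and 224 CPM. Without treated female 3, 23 of 33 estimates were above 0 with a median of 0.08, and without old male 3, 22 were, with a median of 0.06. The part of tissue makeup in these estimates was not tested otherwise. Manf had 1091, 1235 and 1310 normalized counts in old and 1278, 1455 and 1777 in treated old libraries. Its groups overlapped only at their edges. The log2 fold change was 0.27 ± 0.065, the smallest p among the members (adjusted p = 0.678), and it ran from 0.23 to 0.30 with each library left out in turn. Hspa5 had 4736, 5655 and 6023 in old and 5676, 6096 and 8063 in treated libraries, which overlapped. This gave a log2 fold change of 0.23 ± 0.078 (adjusted p = 0.678).

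Pdia6 had 2347, 2673 and 2771 in old and 2689, 2945 and 3735 in treated old libraries. They overlapped, with treated female 1 far above the rest, and the log2 fold change was 0.19 ± 0.070 (adjusted p = 0.678). Hsp90b1 had 9164, 10830 and 11500 in old and 10320, 11800 and 13480 in treated libraries. The overlap was broad, with a log2 fold change of 0.16 ± 0.076 (adjusted p = 0.678).

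The 4 lower estimates with the smallest p were those of Sesn2, Atf5, Ern1 and Syvn1. Sesn2 had 581, 626 and 767 in old and 384, 542 and 628 in treated libraries, which overlapped. The fitted log2 fold change was -0.28 ± 0.103 (adjusted p = 0.678). Atf5 had 1410, 1538 and 1693 in old and 1243, 1401 and 1654 in treated libraries, with a log2 fold change of -0.14 ± 0.078 (adjusted p = 0.688). Its groups overlapped over most of their range. The sensor Ern1 had 307, 373 and 399 in old and 212, 324 and 372 in treated libraries. They overlapped, and the log2 fold change of -0.25 ± 0.148 (adjusted p = 0.705) was -0.14 without treated female 2. Syvn1 had 2913, 3215 and 3535 in old and 2847, 3016 and 3567 in treated libraries, with overlap throughout. Its log2 fold change of -0.08 ± 0.067 (adjusted p = 0.787) was -0.12 without treated female 2 and -0.04 without old male 3.

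The third comparison set APP/PS1 mice against their littermates, 6 libraries each. Limma called 0 of 33 members, against 0.0486% of 16475 genes. EdgeR called 0 members (0.0486%) and DESeq2 0 (1.59%). At an unadjusted p under 0.05, 2 members were higher (4.72% of genes) and 0 were lower (5.46%). This total of 2 was 0 without APP/PS1 female 2, 1 without APP/PS1 male 2, APP/PS1 male 3 or littermate male 1 and with the replicate block, 4 without APP/PS1 female 3 or littermate female 2, and 9 with library weights. It was 3 without APP/PS1 female 1 or littermate female 3. The median log2 fold change was -0.03 against 0.00 over all genes, with 18 of 33 below 0 (49.7% of genes). That median ran from -0.056 without littermate female 2 to -0.005 without littermate male 3. It was -0.007 without littermate female 3, -0.018, -0.015 and -0.016 without APP/PS1 female 2, male 1 or male 2, -0.047 without APP/PS1 male 3 and -0.057 with the choroid plexus covariate. Groups without overlap were found for 0 members, higher (0.437% of genes) or lower (0.413%). The 95% limits were within 1.5-fold for 30 of 33 (64.8% of genes).

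Herpud1 (chr8:94386438-94395377, plus strand), an ER membrane protein that assists the degradation complex, had 1402, 1515 and 1643 normalized counts in littermates and 1431, 1770 and 2167 in APP/PS1 libraries. Its groups overlapped, although the APP/PS1 libraries spread further up. It had a log2 fold change of 0.25 ± 0.095 (adjusted p = 0.399). Without APP/PS1 female 3 it was 0.32 with an adjusted p of 0.0685, and in that fit limma called 256 genes in all and still 0 members. Dnajb9, a J-domain partner of Hspa5 that restrains Ern1, had 1074, 1279 and 1322 in littermates and 1223, 1459 and 1526 in APP/PS1 libraries, which overlapped. The estimated log2 fold change was 0.18 ± 0.076 (adjusted p = 0.439), and 0.11 with library weights.

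Asns, asparagine synthetase, had 2447, 2772 and 3137 in littermates and 2514, 3114 and 3507 in APP/PS1 libraries. They overlapped broadly, with a log2 fold change of 0.15 ± 0.088 (adjusted p = 0.617), and 0.09 with the choroid plexus marker level as a covariate. The sensor Eif2ak3 had 954, 1050 and 1206 in littermates and 978, 1150 and 1336 in APP/PS1 libraries, again overlapping, with a log2 fold change of 0.13 ± 0.080 (adjusted p = 0.632).

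Of the 14 chaperones and foldases, most of which vary together between libraries, 11 had estimates below 0, with a median of -0.08. Summed hippocampal neuron markers had a median of 639 CPM (434 to 897) in APP/PS1 and 810 CPM (740 to 982) in littermate libraries. Summed striatal neuron markers ran from 102 to 1670 CPM in APP/PS1, highest in female 1, and from 93.4 to 131 CPM in littermate libraries. Without APP/PS1 female 1, 19 of 33 estimates were below 0 with a median of -0.03. With the choroid plexus covariate 21 were, with a median of -0.06. The part of tissue makeup in the transgene estimates was not tested otherwise. Calr had 15350, 15940 and 19790 in littermates and 13610, 14960 and 17930 in APP/PS1 libraries. The groups overlapped, and the log2 fold change was -0.12 ± 0.069 (adjusted p = 0.597). Sdf2l1 had 217, 288 and 368 in littermates and 122, 250 and 368 in APP/PS1 libraries. They overlapped, with 2 APP/PS1 males below all littermates. The estimate of -0.35 ± 0.215 (adjusted p = 0.622) was -0.20 without APP/PS1 male 3.

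Manf had 1178, 1291 and 1631 in littermates and 1024, 1180 and 1505 in APP/PS1 libraries, which overlapped. Its log2 fold change was -0.14 ± 0.099 (adjusted p = 0.678). Pdia4, a disulfide isomerase, had 1264, 1314 and 1501 in littermates and 970, 1198 and 1657 in APP/PS1 libraries. The APP/PS1 libraries lay on both sides of the littermates. Its estimate of -0.13 ± 0.103 (adjusted p = 0.708) was -0.21 without APP/PS1 female 3, -0.08 without APP/PS1 male 1, -0.08 without littermate male 1 and -0.26 with library weights.

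The fourth comparison set 5 treated against 6 untreated APP/PS1 libraries, the latter being those of the transgene comparison, so both share them. Limma called 0 of 33 members, as it called 0.0% of 16124 genes. EdgeR called 0 members (0.0% of genes) and DESeq2 0 (0.0436%). At an unadjusted p under 0.05, 2 members were higher (1.45% of genes) and 0 were lower (1.51%). This total of 2 was 0 without APP/PS1 male 2 or treated female 2, 1 without APP/PS1 female 3, APP/PS1 male 3 or treated male 3 and with the replicate block, and 3 without APP/PS1 female 2 or treated male 1. The median log2 fold change was 0.02 against -0.00 over all genes, with 20 of 33 above 0 (49.4% of genes). The direction of that median rested on single libraries: it was -0.001 with 16 of 33 above 0 without APP/PS1 male 1, 0.002 without treated male 2, 0.011 without APP/PS1 female 1, 0.034 without APP/PS1 male 3 and 0.045 without APP/PS1 female 2. With library weights it was 0.047, with 18 above 0, and with the choroid plexus covariate 0.031. Again 0 members had groups without overlap, higher (0.155% of genes) or lower (0.155%). The 95% limits were within 1.5-fold for 29 of 33 (64.3% of genes).

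Chac1 (chr2:119351229-119354381, plus strand) had 143, 166 and 196 normalized counts (lowest, median and highest) in the 6 untreated APP/PS1 libraries. The 5 treated libraries had 172, 334, 245, 190 and 237. The groups overlapped, with treated female 2 highest. The fitted log2 fold change was 0.47 ± 0.178 (adjusted p = 0.997). Without treated female 2 it was 0.30, and with the choroid plexus marker level as a covariate 0.76. Ern1 had 240, 269 and 340 in untreated libraries, and the treated ones had 358, 422, 287, 301 and 374. They overlapped, again with treated female 2 highest, and the log2 fold change was 0.32 ± 0.133 (adjusted p = 0.997). Treated females 1 and 2 were the libraries over 800 CPM of choroid plexus markers, and without them the log2 fold change of Ern1 was 0.20. Since female 3 was already left out, this removes every treated female, so here and below the value without females 1 and 2 is the effect in males, and choroid plexus level and sex cannot be told apart in it.

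Syvn1 had 2200, 2405 and 2516 in untreated libraries, and 2576, 2877, 2473, 2383 and 2429 in treated ones. They overlapped, and the log2 fold change of 0.11 ± 0.065 (adjusted p = 0.997) was 0.06 without treated female 2 and 0.03 without treated females 1 and 2. Pdia6 had 1641, 1893 and 2234 in untreated libraries, and 2051, 2321, 1814, 2082 and 1790 in treated ones. The treated libraries lay within or just above the untreated range, with a log2 fold change of 0.10 ± 0.070 (adjusted p = 0.997), which was 0.07 without treated male 2.

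No lower estimate had an unadjusted p under 0.05. Dnajb9 had 927, 1095 and 1150 in untreated libraries, and 991, 987, 1062, 957 and 850 in treated ones. They overlapped, with a log2 fold change of -0.13 ± 0.075 (adjusted p = 0.997), and -0.08 without treated females 1 and 2. Phgdh, the first enzyme of serine synthesis, had 1766, 1941 and 2000 in untreated libraries, and 2105, 1520, 1568, 1697 and 1791 in treated ones. Treated female 1 was above all untreated libraries and 3 others were below all of them. The log2 fold change of -0.14 ± 0.087 (adjusted p = 0.997) was -0.24 without treated female 1, -0.09 without treated female 2, -0.22 without both and -0.33 with the choroid plexus covariate.

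Canx had 7677, 8505 and 10900 in untreated libraries, and 8450, 8192, 8100, 8501 and 8246 in treated ones. The treated libraries lay within the untreated range. Its estimate of -0.08 ± 0.074 (adjusted p = 0.997) was -0.03 without APP/PS1 female 1, -0.04 without treated female 2 and 0.03 without treated females 1 and 2. Trib3 had 8.39, 16.2 and 33.4 in untreated libraries, and 17, 10.8, 13.8, 11.2 and 13.4 in treated ones. These lay inside the untreated range. The log2 fold change of -0.34 ± 0.394 (adjusted p = 0.997) ran from -0.58 without APP/PS1 male 2 to -0.11 without APP/PS1 male 3. With library weights the log2 fold change was 0.19 for Ern1, -0.05 for Dnajb9 and -0.02 for Canx.

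**Figure D4:**
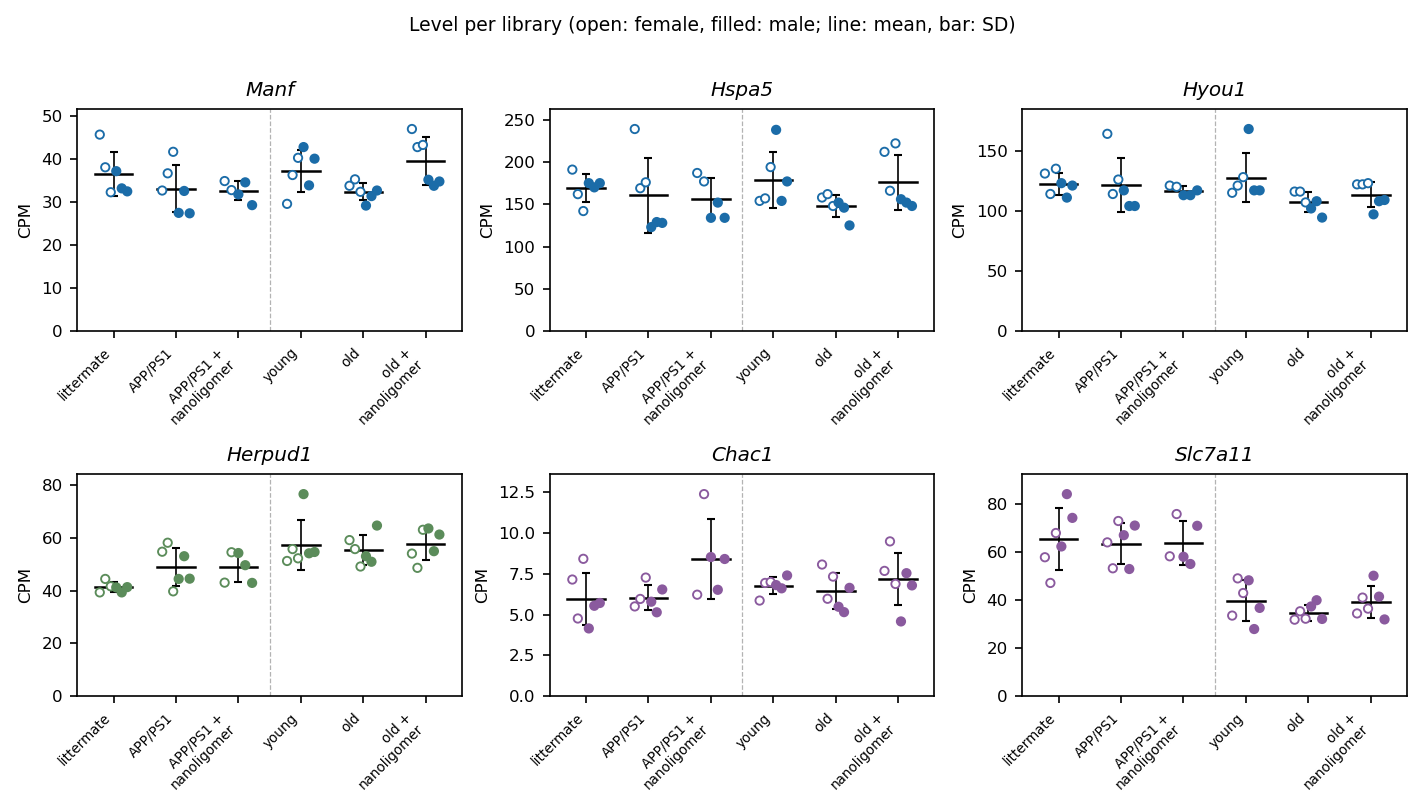
Level of 6 genes in each of the 35 libraries, in CPM on axes that start at 0, with open points for females and filled points for males, and the group mean (line) with SD (bar). Groups overlap in CPM within each arm for all 6 genes, and Slc7a11 is higher in the arm of 4 months on the left.

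The difference between the treatment effects in the 2 arms was tested in 1 limma fit of the 23 libraries, which share none between arms. It called 0 of 33 members, against 0.0% of 15990 genes, and 1 member had an unadjusted p under 0.05 (4.35% of genes). That member was Ern1, with a log2 fold change of -0.25 in old and 0.32 in APP/PS1 mice and a difference of 0.56 ± 0.202 (95% limits 0.14 and 0.98, adjusted p = 0.918). For Manf the difference, APP/PS1 minus old, was -0.24 (95% limits -0.48 and 0.00), and for Hspa5 it was -0.17 (95% limits -0.41 and 0.08).

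Between the arms, 17 libraries of 4 months and 18 of the C57BL/6 arm were compared in CPM from recovered reads. Age, strain background and cohort cannot be told apart here, so no test was made. No member had all libraries of an arm above or below all of the other, as 0.122% and 0.219% of 16420 genes had. The widest gap was in Slc7a11 (chr3:49892526-50443614, minus strand), the cystine and glutamate antiporter. It had 47.2 to 84.2 CPM (median 64.1) in the arm of 4 months and 28.0 to 50.2 CPM (median 36.6) in the C57BL/6 arm, a ratio of medians of 1.75. Only the edges of these ranges overlapped. Within the arm of 4 months its group means were 65.7 ± 12.9 in littermate, 63.6 ± 8.67 in untreated and 63.7 ± 9.18 CPM in treated APP/PS1 libraries (SD). In the C57BL/6 arm they were 39.8 ± 8.43 in young, 34.9 ± 3.37 in old and 39.3 ± 6.48 CPM in treated old libraries. Herpud1 had the reverse order, with medians of 44.4 and 54.8 CPM and ranges of 39.3 to 58.1 and 48.6 to 76.5.

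Whether the effects differed between the sexes was tested by the interaction of sex and group in limma. It called 0 members in each comparison, and 0.0% of all genes in each. At an unadjusted p under 0.05 it had 1 member for age (4.39% of genes), 3 for treatment in old mice (4.71%), 5 for the transgenes (5.10%) and 0 for treatment in APP/PS1 mice (4.52%). The 5 members for the transgenes were Hspa5, Canx, Pdia4, Dnajc3 and Atf5. The chaperone estimates of the transgene comparison were below 0 for 12 of 14 genes in males (median -0.16) and for 5 of 14 in females (median 0.05). The share of all genes below 0 within each sex is not given here, so a lean particular to chaperones cannot be read from these counts. The chaperones also vary together between libraries.

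Hspa5 had the smallest p of these. Littermate males had 175, 170 and 175 CPM and APP/PS1 males 123, 129 and 128 CPM. Littermate females had 191, 162 and 142 CPM and APP/PS1 females 239, 169 and 176 CPM. The males did not overlap, whereas the females did. Hspa5 had a log2 fold change of -0.42 ± 0.117 in males and 0.21 ± 0.117 in females, and their difference was -0.63 ± 0.165 (adjusted p = 0.847). Without APP/PS1 female 1 the difference was -0.51 ± 0.135 (adjusted p = 0.907), and 4 members then had an unadjusted p under 0.05 (5.09% of genes).

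In CPM, 11 of 33 members had all 3 APP/PS1 males below all 3 littermate males, as did 14.3% of genes, and 9 of the 11 were chaperones or foldases. With the deposited size factors the count was 9, of which 7 were chaperones or foldases, against 11.2% of genes. In males 2 members, Herpud1 and Asns, were higher without overlap in CPM (9.35% of genes), and 3 with the deposited size factors (12.1%). In females 0 members were lower without overlap (4.15% of genes in CPM) and 3 were higher (5.34%). These counts were made after the values were seen. Summed hippocampal neuron markers were 557 to 744 CPM in the 3 APP/PS1 males and 846 to 982 CPM in the 3 littermate males, and the part of tissue makeup in the difference was not tested.

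For treatment in old mice, Trib3 had the smallest p of the members for a difference between the sexes. Old females had 0.443, 0.343 and 0.368 CPM and treated old females 1.0, 0.616 and 1.74 CPM. Old males had 0.738, 0.903 and 0.705 CPM and treated old males 0.128, 0.204 and 0.348 CPM. So treated females were all above and treated males all below their controls, a pattern of opposite directions without overlap that 0.56% of genes had. The log2 fold changes were 1.35 ± 0.494 in females and -1.76 ± 0.494 in males, and the difference had an adjusted p of 0.914. These levels rest on 4 to 66 reads per library. Calr had log2 fold changes of 0.24 ± 0.085 in females and -0.09 ± 0.085 in males (difference adjusted p = 0.914), and Eif2ak3 -0.15 ± 0.095 and 0.22 ± 0.095 (0.914). In the age comparison, Sesn2 had -0.13 ± 0.144 in females and 0.38 ± 0.144 in males (difference adjusted p = 0.983).

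Taken by sex in CPM, 8 members had all 3 treated old females above all 3 old females (5.32% of genes), namely Hspa5, Calr, Pdia3, Pdia6, Hyou1, Manf, Xbp1 and Trib3, and 1, Sesn2, had them below (4.26%). In males 1 member, Manf, was higher without overlap (6.65% of genes) and 2, Syvn1 and Trib3, were lower (7.05%). With TMM scaling the counts of higher members were 9 in females (5.29% of genes) and 4 in males (7.44%). All of these counts were made after the values were seen.

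Levels of most chaperones were positively correlated from library to library. Deviations of log2 of CPM plus 1 from the mean of group and sex were correlated over the 35 libraries, which share tissue, depth and scaling within each library. Over the 91 pairs of chaperones and foldases the median Pearson r was 0.47, with 87 pairs above 0 and 40 above 0.5. The median over all pairs of 16420 genes was 0.02. Pairs of integrated stress response targets had a median of 0.03 (28 pairs). The closest pairs were Canx with Pdia3 (r = 0.81) and Pdia3 with Pdia4 (r = 0.81), which act on glycoproteins and disulfides. Hsp90b1 also went with Pdia3 (r = 0.80) and with Canx (r = 0.78). Outside the chaperones, Atf4 went with Asns, its known target (r = 0.69). This pair was named for its high value and was not tested. The 56 pairs of a sensor or factor with an integrated stress response target had a median of 0.11, with 2 above 0.5. The most opposed pairs were Hyou1 with Atf6 (r = -0.65, rho = -0.49) and Atf6 with Syvn1 (r = -0.64, rho = -0.59), where rho is that of Spearman. APP/PS1 female 1 and young male 1 had the highest Hyou1, 164 and 168 CPM, with low Atf6, 58.4 and 61.3 CPM. These 2 pairs were not tested, and no value without those libraries is given for them.

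These coefficients depended in size on a few libraries and on scaling. Without APP/PS1 female 1 and young male 1, the 2 libraries low in neuron markers, the chaperone median was 0.33, with 83 pairs above 0 and 27 above 0.5. With TMM scaling it was 0.34, with 79 pairs above 0 and 26 above 0.5. By gene, the median r with the other chaperones was 0.60 for Canx, 0.57 for Pdia3 and 0.56 for Hspa5, and 0.13 for Dnajb9. Of genes outside the group, Phgdh had 0.42 and Psat1 0.37, and Atf4 had -0.19.

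Of these relations, 3 were tested by permutation of libraries within group and sex (100000 draws, two-sided). Hspa5 and Hsp90b1 had r = 0.70 (p = 0.00053, adjusted p = 0.00159) and Spearman rho = 0.71 (p = 0.00028, adjusted p = 0.00084) over 35 libraries. Without the 2 libraries farthest from the median of Hspa5, r was 0.63 (adjusted p = 0.00924 by permutation), and with TMM scaling it was 0.60 (adjusted p = 0.00699 by permutation). Asns and Psat1 had r = -0.16 (p = 0.417, adjusted p = 0.480) and rho = -0.14 (p = 0.472, adjusted p = 0.472). Hspa5 and Asns had r = -0.18 (p = 0.480, adjusted p = 0.480) and rho = -0.21 (p = 0.361, adjusted p = 0.472). The relation held for the first pair and did not pass for the other two.

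**Figure D5:**
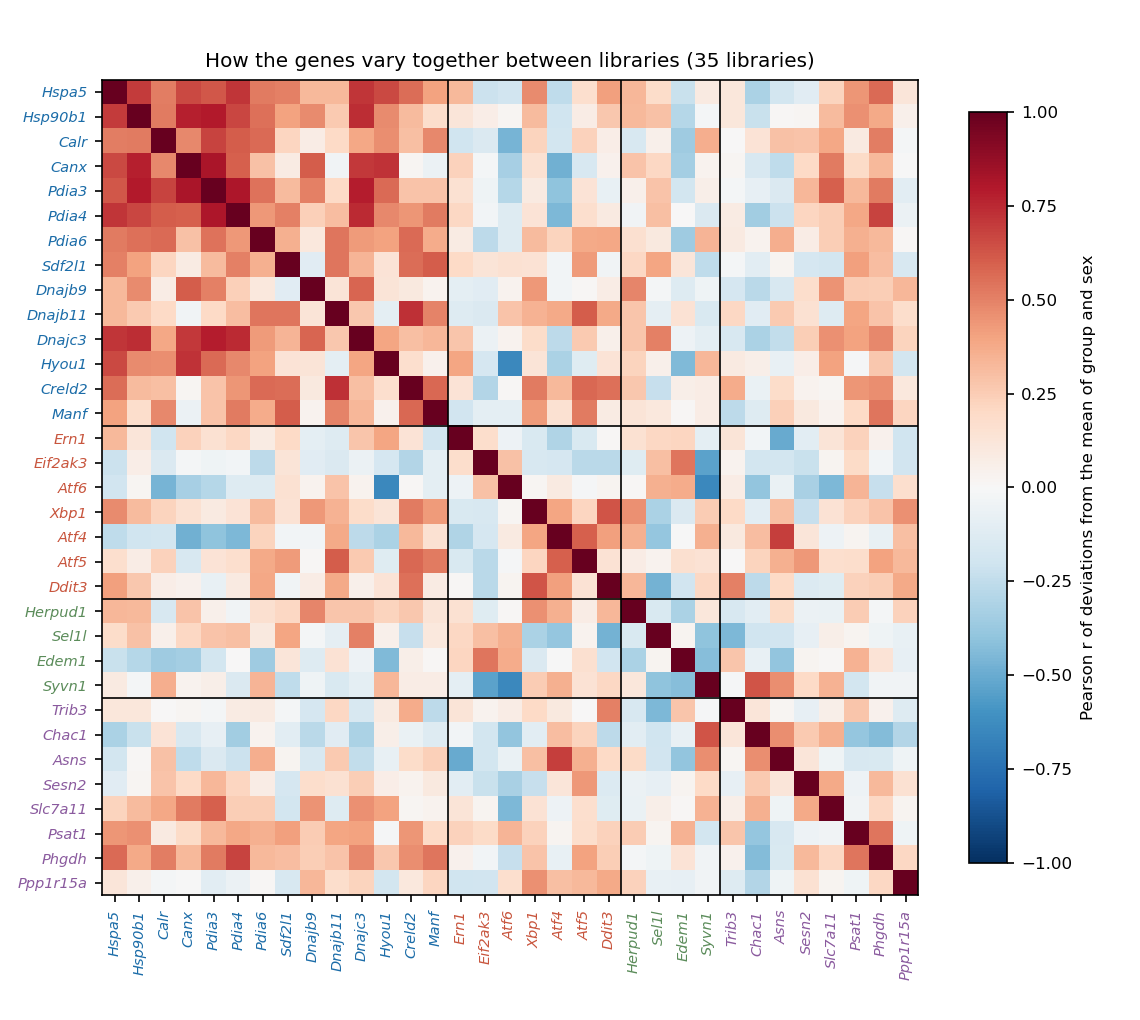
Pearson r between genes (blue to red, from -1 to 1) of their deviations from the mean of group and sex over 35 libraries, ordered by role with black lines between roles. The block of 14 chaperones and foldases at the upper left is mostly red, with 87 of 91 pairs above 0, and no such block is seen among the integrated stress response targets at the lower right.

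Other genes of the pathway, in 8 lists of 6 to 20 genes, also had 0 calls in limma and 0 in edgeR in every list and comparison. Of their 112 tested genes, 4 were higher and 3 lower with age at an unadjusted p under 0.05 in limma (3.37% and 2.77% of all genes). Under treatment in old mice 5 were higher and 6 lower (3.62% and 3.60%), with the transgenes 7 and 3 (4.72% and 5.46%), and under treatment in APP/PS1 mice 1 and 1 (1.45% and 1.51%). DESeq2 called 2 of the 112, in the transgene comparison only, where it called 1.59% of all genes: Ddit4 at -0.37 (adjusted p = 0.0311) and Slc7a1, a transporter of cationic amino acids, at 0.26 (adjusted p = 0.0344), where limma had an adjusted p of 0.210 and 0.212. Ddit4, an inhibitor of mTORC1 induced by stress and glucocorticoids, had the smallest p among the other Atf4 and CHOP targets in each comparison. The estimated log2 fold change was 0.34 ± 0.102 with age (adjusted p = 0.535) and -0.39 ± 0.086 in treated old mice (adjusted p = 0.678), estimates that share the old libraries. It was -0.38 ± 0.094 in APP/PS1 mice (adjusted p = 0.210) and 0.15 ± 0.110 under treatment in APP/PS1 mice (adjusted p = 0.997), which share the APP/PS1 libraries.

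The 17 other ER folding enzymes had 15 estimates below 0 with age (median -0.09, against 51.4% of all genes below 0). In treated old mice 11 were above 0 (median 0.01, against 49.0% of all genes above 0). None of these passed limma. With age the smallest p among them was that of Ero1l, the oxidase that recharges disulfide isomerases, at -0.11 ± 0.063 (adjusted p = 0.852). In treated old and in treated APP/PS1 mice it was that of Cnpy2, at -0.23 ± 0.069 (adjusted p = 0.678) and -0.19 ± 0.084 (adjusted p = 0.997). In APP/PS1 mice Sil1, an exchange factor of Hspa5, had 0.34 ± 0.170 (adjusted p = 0.523).

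In the list of other degradation genes, the lectin Erlec1 had 0.31 ± 0.089 in APP/PS1 mice (adjusted p = 0.242) and -0.16 ± 0.090 under treatment in APP/PS1 mice (adjusted p = 0.997). Edem2, a mannosidase, had 0.18 ± 0.082 with age (adjusted p = 0.810) and -0.21 ± 0.103 in treated old mice (adjusted p = 0.678). These pairs of estimates again share libraries.

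Of 12 aminoacyl-tRNA synthetases, which are known Atf4 targets, 10 estimates were above 0 with age, 6 under treatment in old mice, 9 with the transgenes and 10 under treatment in APP/PS1 mice. Over all genes, 51.4% of estimates were below 0 with age and 49.7% with the transgenes. Under treatment 49.0% were above 0 in old and 49.4% in APP/PS1 mice. The signs within these lists were not tested. The smallest p values were those of Lars with age (0.13 ± 0.060, adjusted p = 0.825), Sars in treated old (0.12 ± 0.069, adjusted p = 0.701), Aars in APP/PS1 (0.15 ± 0.064, adjusted p = 0.462) and Wars in treated APP/PS1 mice (0.21 ± 0.069, adjusted p = 0.997). None passed. The 15 cytosolic heat shock genes are a separate folding system. With age 11 of their estimates were below 0 (median -0.07), and in treated old mice 12 were above 0 (median 0.08). With the transgenes 9 were below 0, and under treatment in APP/PS1 mice 10 were above 0. The lean with age and in treated old mice was thus not particular to the ER chaperones. Bag3, against most of this list, had -0.28 ± 0.095 in treated old mice (adjusted p = 0.678). Hspa4l had -0.19 ± 0.113 with age (adjusted p = 0.853). Dnaja1 had -0.10 ± 0.057 in APP/PS1 (adjusted p = 0.572) and 0.14 ± 0.063 in treated APP/PS1 mice (adjusted p = 0.997).

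Among 13 genes of ER translocation and signal peptide processing, the smallest p values were those of Sec11c with age (0.15 ± 0.067), Spcs3 in treated old (0.25 ± 0.110), Ssr1 in APP/PS1 (0.13 ± 0.059) and Spcs1 in treated APP/PS1 mice (0.14 ± 0.072). Of 16 other regulators of ER stress or the integrated stress response, Eif2ak2, the kinase that responds to double-stranded RNA, had 0.45 ± 0.227 with age. Creb3 had -0.14 ± 0.070 in treated old, Eif2b2 -0.12 ± 0.062 in APP/PS1 and Mbtps2 0.17 ± 0.088 in treated APP/PS1 mice. In the 6 genes of mitochondrial protein stress, Clpp had 0.09 ± 0.058 with age and 0.07 ± 0.074 in APP/PS1, and Hspe1 -0.12 ± 0.092 in treated old and -0.18 ± 0.098 in treated APP/PS1 mice. All of these failed the adjustment in limma, with adjusted p from 0.466 to 0.997.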

How the data were processed

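The authors deposited 4 tables of read counts per gene divided by size factors, 1 per comparison with 12 libraries each. Per the submitters' processing notes STAR, DESeq2 and mm10 were used. No source used here gives the step each served, their versions, the read counter or the annotation. These normalized count values are a signal scale that the authors set within each table, so levels across tables were compared only in CPM (counts per M reads) from whole reads, which were recovered for 100.0% of values within 0.001 reads. The 12 libraries in 2 tables had identical reads in both. The column of male 3 in the treated APP/PS1 group differs from its sample title by 1 letter and was matched to it as the only candidate. Female 3 of that group was left out for its low depth.

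Log2 of the value plus 1 was fitted with limma 3.58.1 (R 4.3.3, intensity trend, terms for sex and group) on genes whose mean was 10 or more, with Benjamini-Hochberg adjustment over all genes tested and a threshold of 0.05. Scripts were tested on simulated data. On the recovered reads, edgeR 4.0.16 called 6, 0, 8 and 0 genes and DESeq2 1.42.0 called 123, 2, 256 and 7 (age, treatment in old, transgene, treatment in APP/PS1). The members, the gene lists and the markers were chosen with earlier results of these data known. Given in full per comparison were the 4 members with the smallest p in each direction, and of each other list the gene with the smallest p. Exons came from GENCODE M21 (GRCm38) and start windows from RefSeq (GRCm38.p6). The ER stress element II and the unfolded protein response element were added after the first search. Alternatives were another scaling, pseudocounts of 0.5 and 5, other filters, no trend, no sex term, library weights, a choroid plexus marker covariate, a replicate block, the low-depth library kept and each library left out. Leaving out libraries by choroid plexus or neuron markers was chosen after seeing the data. Depth was 27.6 to 46.3 M reads in the libraries used, and Trib3, with 4 to 66 reads per library, has the largest counting error.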

Additional observations from a re-analysis of the deposited data

Results flagged for a closer look

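Single libraries stood apart from the other 5 of their group, by the gap to the nearest library relative to the range, in 10 of 64 groups of values tested, and chance alone picks about 1 in 20 such groups. These groups are not independent, since some hold the same reads and many of the genes vary together. No excess over chance can therefore be read from this count. Old male 3 was lowest for Hspa5, with 5066 normalized counts in the age table (next 6014) and 4736 in the treatment table (next 5618), which hold the same reads. The same library was highest for Sesn2, with 821 in the age table (next 692) and 767 in the treatment table (next 647). It also had the lowest summed hippocampal neuron markers, 224 CPM. Young male 1 was highest for Hyou1 at 6308 (next 5166), and it had the highest choroid plexus markers, 4110 CPM. Young female 2 was lowest for Psat1 at 3354 (next 4027). Littermate female 1 was highest for Calr at 19790 (next 16770) and lowest for Dnajb9 at 1074 (next 1237). Treated old female 1 was highest for Pdia6 at 3735 (next 2969). Treated old female 2 was highest for Syvn1 at 3567 (next 3051). The part of tissue makeup in these values was not tested.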

How the results depend on the processing

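The count of members called stayed at 0 in all 109 recomputed counts, over scaling, pseudocount, filter, trend, sex term, library weights, edgeR, DESeq2, replicate block and each library left out. Of 783 recomputed log2 fold changes of named members 779 kept their direction and stayed past no threshold. The other 4 turned: with the low-depth library kept, treatment in APP/PS1 gave -0.84 for Chac1, -1.78 for Syvn1 and -1.75 for Pdia6, where the median over all genes was itself -0.68, and Canx gave 0.029 without the libraries high in choroid plexus markers, which are both treated females used. The smallest adjusted p of any member over all alternatives was 0.0654, in the transgene comparison with library weights, where 548 genes were called against 8. The low-depth library has 0.913 M reads, which limits every value that includes it. Labels such as F1 are shared by the groups compared, but the deviations of libraries with the same label had a correlation of -0.247 to 0.294, not every pair was above 0.1 in any comparison, and not every library went best with its own label, so they were not taken as pairs. With the replicate block in place of sex, 0 members and 1, 0, 10 and 0 genes were called (age, treatment in old, transgene, treatment in APP/PS1).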
